A study of Mus musculus with 4 samples.

Results

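The cells described here are fetal liver progenitors that carried the CD48 antibody tag and not the CD150 tag and had few transcripts of cell-cycle genes. They were chosen by 4 steps. A barcode needed at least 8000 gene UMIs (unique molecular identifiers, 1 for each captured RNA molecule) and at most 10% mitochondrial UMIs. Its centred log-ratio (CLR, the natural log of 1 plus the tag count minus the mean of that log over the 6 antibodies) had to be at most -1.14 for CD150 and at least 2.34 for CD48. It had to hold fewer than 2 UMIs each of Elane, Klf1, Pf4, Il7r and Cma1, genes of granulocytic, erythroid, platelet, lymphoid and mast cells. Of the cells left, pooled over both libraries, the top 20% for an M score (Cenpf, Ube2c, Aspm, Ccnb1, Cdc20 and Hmmr, UMIs per 10000) were dropped. The rest was divided by an S score (Pclaf, Tyms, Tk1, Rrm2, Hist1h1b and Hist1h1a) at 1.65 and 9.44 UMIs per 10000 into 3 classes of equal size over both libraries, called S-low, S-mid and S-high below, and the S-low cells are the members. This left 1190 members of 8094 cells, 862 of 5352 in WT and 328 of 2742 in KO. The members were thus chosen on measured values of these same cells, and the 17 genes and 2 antibodies of the rule are given as a description only.

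The study profiled LSK cells (lineage-negative, Sca1-positive, c-Kit-positive, the gate that holds blood stem cells and multipotent progenitors) from mouse fetal liver at E17.5. WT stands for Bclaf1f/f embryos, whose floxed alleles are uncut, and KO for Vav-Cre:Bclaf1f/f embryos, in which Cre is driven by the Vav promoter, active in blood cells. Both groups carry the floxed alleles, and only KO carries Cre. Each genotype gave 1 pool of 10 embryos, enriched for c-Kit, sorted and captured as 1 library with RNA and antibody tags, so KO and WT differ by library as well as by genotype and no test between them is possible. All intervals below are 95% intervals of counting error in these libraries, and the genotype and the handling of each library cannot be told apart.

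Fetal liver is where blood stem cells multiply before birth, and most of its LSK cells divide. Cells with CD48 and without CD150 are multipotent progenitors beyond the stem cell stage, primed toward myeloid or lymphoid fates. During G1 the DREAM and RB complexes hold down E2F target genes, whose products copy DNA, and genes of mitosis through CCAAT and CHR promoter elements; FOXO factors turn on genes of growth arrest. Replication-dependent histone genes give short RNAs without a poly(A) tail in S phase, so a poly(A)-primed assay captures them partly.

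2 antibody barcodes chose the gate and are shown for that reason, as deposited, in capitals because all 15 bases are the barcode.
CD150: CAACGCCTAGAAACC
CD48: AGAACCGCCGTAGTT
In the members the CD48 tag stood at a median of 2716 counts per cell in WT and 4749 in KO, and the CD150 tag at 8 and 14. The last member inside the CD48 limit had a CLR of 2.34027 and the first cell outside 2.32781. For the S score the members ended at 1.65135 UMIs per 10000 and the S-mid cells began at 1.65388, so the edge of the group is not a gap. No UMI of the 6 S genes was found in 30.3% of WT members and 19.8% of KO members, and none of the M genes in 63.8% and 55.2%, at median depths of 17744 and 24438.5 UMIs.

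**Figure D1:**
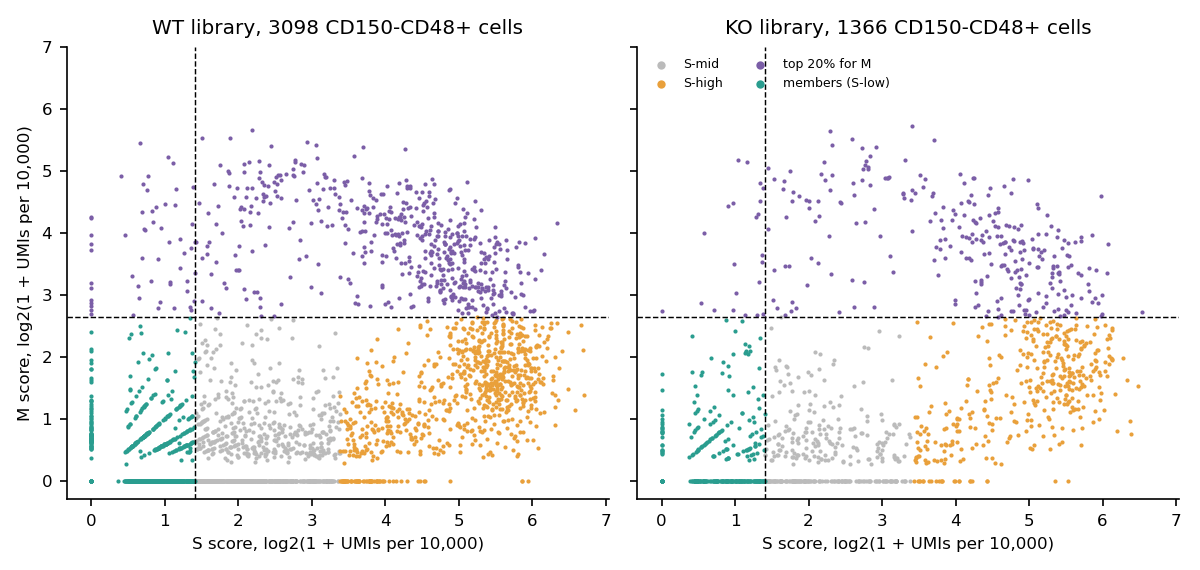
M score against S score of every CD150-CD48+ cell without lineage transcripts (both axes log2 of 1 plus UMIs per 10000; dashed lines, the limits for M and for the S-low class; 1 point is 1 cell). The members fill the lower left corner in both libraries, and cells continue across the S limit without a break.

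Members made up 16.1% of WT cells (862 of 5352, exact Clopper-Pearson interval 15.1 to 17.1) and 11.96% of KO cells (328 of 2742, 10.8 to 13.2), a difference of -4.14 percentage points (Newcombe interval -5.68 to -2.55). Within the CD150-CD48+ cells without lineage transcripts the share was 27.8% in WT and 24.0% in KO (-3.81 points, -6.53 to -1.01). S-high cells made up 25.8% and 28.6% of the same cells, and those in the top 20% for M 18.9% and 22.5%. The members of KO were deeper, with 1.38 times the median UMIs of WT members, and the lineage step took 330 of 1696 gated KO cells against 372 of 3470 gated WT cells. With the S and M scores taken from cells thinned to 8000 UMIs, the difference was -5.08 points of all cells and -5.23 points of the CD150-CD48+ cells. Forming the S classes within each library in place of over both gave -2.78 points of all cells and -1.21 points of the CD150-CD48+ cells. That setting makes members an equal part of each library's cells left after the M step, so its differences come from the earlier steps.

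Of the CD150-CD48+ classes the members had the fewest UMIs per cell. Their median of 17744 UMIs in WT was 0.782 of the median over all WT cells, and 24438.5 in KO was 0.730 of the KO median. S-high cells had medians of 30680 and 40767 UMIs. The mitochondrial share of members was 4.23% in WT and 4.37% in KO. The other 4 surface tags had no limit of their own in the rule but enter the mean of every CLR, so they are not independent of the gate. Of these, CD34 had a median CLR of -0.43 in WT and -0.41 in KO, CD117 (c-Kit) 1.79 and 1.45, Sca1 0.33 and 0.03, and CD201 (the protein C receptor, high on stem cells) -2.44 and -1.85. The CD201 difference came with a median of 8 tags in WT and 29.5 in KO; KO members held 1.68 times as many tags in all, and the CD201 difference over all cells was 0.68. Against S-high cells, members were higher in Sca1 by a CLR of 0.20 in WT and 0.31 in KO, while CD34 differed by -0.02 in both.

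Bclaf1, the targeted gene (chromosome 10, 20310512 to 20342644, GRCm38.p6), stood at 204.9 CPM (counts per 1000000 UMIs, summed over members) in WT and 83.5 in KO, a log2 ratio of -1.29 (-1.42 to -1.17). In S-high cells the log2 ratio was -1.67, and the empty droplets of the libraries held 203.4 and 91.4 CPM. The counts are 3' tags, and the sources used here do not give the deleted exons, so the remaining KO counts say nothing of the protein.

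The first question is what members share beyond the rule, set against the S-high cells of the same gate (800 WT and 390 KO cells). The groups were cut on cycle genes, so these values describe them and test nothing. The 4 marker genes given for the group were all higher in members in both libraries. Hist1h2bc, a histone H2B gene, stood at 308.2 CPM in WT and 392.4 in KO members against 121.3 and 173.7 in S-high cells. Trp53inp1, a p53-induced regulator of autophagy and arrest, stood at 14.96 and 15.7 CPM against 3.8 and 5.3. Ypel3, a p53-induced gene of growth suppression, stood at 85.9 and 80.1 against 31.8 and 29.1. Ptms, which encodes the acidic chromatin protein parathymosin, stood at 50.0 and 44.6 against 19.1 in both libraries. The log2 ratios ran from 1.34 to 1.97 in WT and from 1.18 to 1.56 in KO, with the largest for Trp53inp1.

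None of the 4 singled the members out from every neighbouring class. Ypel3 and Trp53inp1 were higher still in cells of the same M and S limits whose CD48 CLR was below the gate (290 WT and 125 KO cells), at 111.5 and 98.6 CPM for Ypel3 and 24.0 and 30.9 for Trp53inp1. Ptms was at a like level in the top 20% for M, at 49.5 CPM in WT and 52.3 in KO. Hist1h2bc had its highest level in members among the 5 classes in both libraries, but S-mid cells followed at 264.9 and 358.5 CPM.

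**Figure D2:**
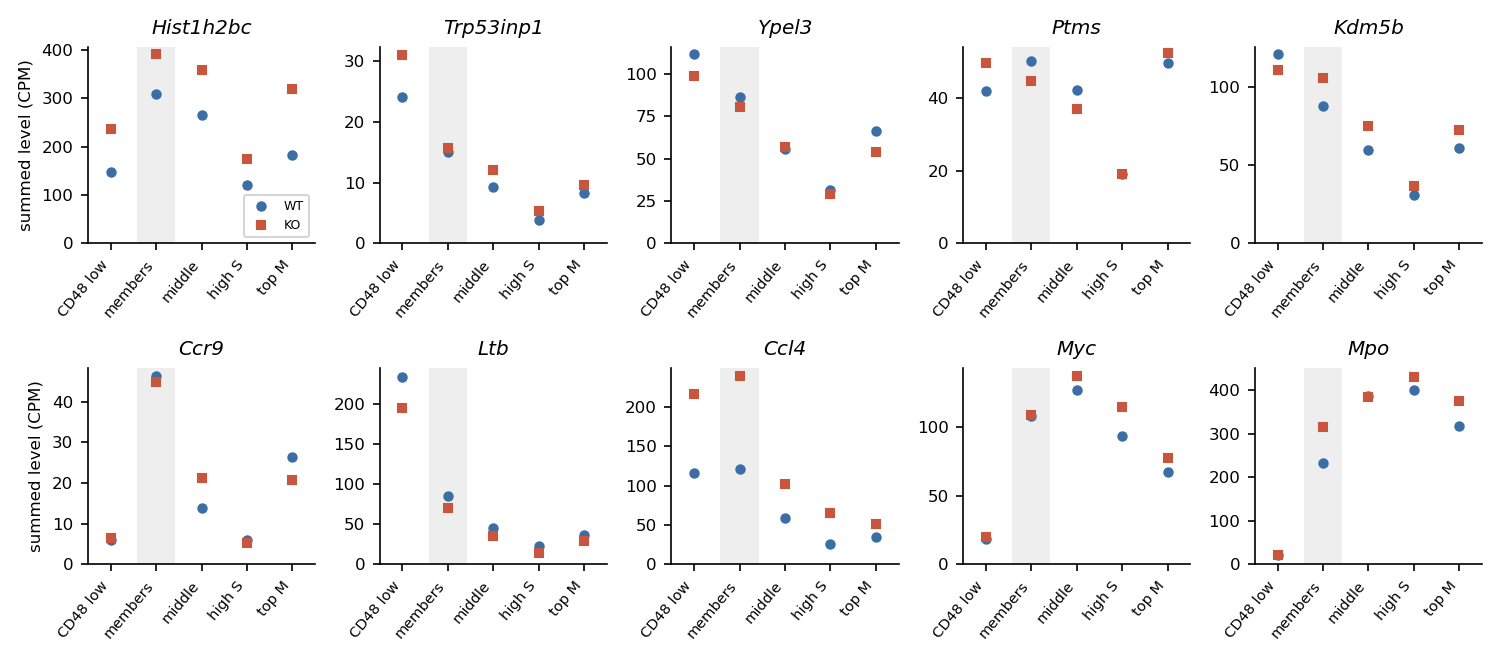
Summed level (CPM, linear axis from 0) of 10 genes in 5 classes of CD150-low cells, with 1 point per library and class; "middle" and "high S" are the S-mid and S-high cells, "CD48 low" has the members' M and S limits and a CD48 tag below the gate, and the grey band marks the members. Ccr9 peaks in the members in both libraries, whereas Ypel3, Trp53inp1 and Ltb are higher in the CD48-low cells.

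Ccr9, Ltb and Ccl4 had the highest ratios among genes higher in members. Of 5376 genes with at least 20 CPM, 5.06% were at least 1.5-fold higher than in S-high cells in both libraries (272 genes) and 9.26% at least 1.5-fold lower (498 genes). Ccr9, the thymus-homing chemokine receptor, stood at 46.2 CPM in WT and 44.7 in KO members against 6.0 and 5.3 in S-high cells, log2 ratios of 2.94 (2.69 to 3.20) and 3.09 (2.74 to 3.45). Ltb, which encodes lymphotoxin beta, stood at 86.1 and 69.9 CPM against 22.96 and 14.1. Ccl4, a chemokine, stood at 121.0 and 239.0 CPM against 26.5 and 65.4. The others of the 10 highest were Lax1, Wfdc17, Gm19590, Ccl3, Rgs1, Kdm5b and Gem, with log2 ratios between 1.48 and 1.85. Kdm5b, a histone H3K4 demethylase, stood at 88.0 and 106.1 CPM against 31.1 and 36.5.

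The lymphoid list had 14 measured genes (at least 5 CPM on average), of which 6 were at least 1.5-fold higher in members in both libraries and none lower, against 7.67% and 7.38% of all 9162 genes so measured; its median log2 ratio was 0.57 in WT and 0.65 in KO. Notch1 had log2 ratios of 1.04 and 1.14, Ighm 0.84 and 0.97, and Flt3, the receptor of lymphoid-primed progenitors, 0.56 and 0.71. The granulocyte-monocyte list went the other way, with 6 of 15 lower and none higher: Ctsg had log2 ratios of -2.28 and -1.51, and Mpo, myeloperoxidase, -0.78 and -0.45. The stem cell list had 6 of 16 higher, among them Hlf with log2 ratios of 1.03 and 0.98, and 1 lower.

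Of 29 measured genes of growth arrest and FOXO activity, 17 were at least 1.5-fold higher and none lower, with a median log2 ratio of 0.66 in WT and 0.84 in KO against 0.08 in both for all genes. For the counts of this paragraph, 7.67% of all 9162 genes were higher and 7.38% lower. Kdm7a, a histone demethylase, had log2 ratios of 1.72 and 1.83, Mxd4, an antagonist of MYC, 1.32 and 1.57, and Pik3ip1, an inhibitor of PI3 kinase, 1.06 and 1.09. Of 29 interferon-response genes 13 were higher, with Irf7 at 1.20 and 1.64. The MYC list had 10 of 24 lower and 2 higher: Ranbp1, a regulator of Ran, had log2 ratios of -0.86 and -0.97, while the 2 higher genes were Mxd4 and Mycn (1.26 and 1.41). Myc itself stood at 108.0 and 109.2 CPM in members and 93.4 and 114.8 in S-high cells, so its ratios of 0.21 and -0.07 differed in sign. Of 18 genes of G1 control none was at least 1.5-fold higher in both libraries and 2 were lower, with medians of -0.16 in WT and 0.15 in KO.

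Cycle genes outside the rule were lower, as the choice of members fixes. Of all 9162 genes with at least 5 CPM on average, 7.38% were at least 1.5-fold lower in both libraries and 7.67% higher. Of 44 replication genes 40 were lower by that fold and of 51 genes of G2 and mitosis 44 were. The lowest were Esco2, the cohesin acetyltransferase of S phase, at 0.631 and 0.504 CPM against 63.4 and 75.8, and Hist1h3b at 2.08 and 4.28 against 197.3 and 277.4. Of the 6 MCM helicase subunit genes, Mcm3, Mcm5 and Mcm7 were past 1.5-fold in both libraries, with Mcm7 at -1.12 and -1.09. Mcm2 (-0.39 and -0.52), Mcm4 (-0.49 and -0.64) and Mcm6 (-0.57 and -0.58) were not. Of the G2 and mitosis list Psrc1 was higher at 0.54 and 0.59, and Ccnb2, a mitotic cyclin, stood at 0.14 in both. Of 54 replication-dependent histone genes 48 were lower and 2 higher, namely Hist1h2bc and Hist3h2a (0.93 and 0.61).

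**Figure D3:**
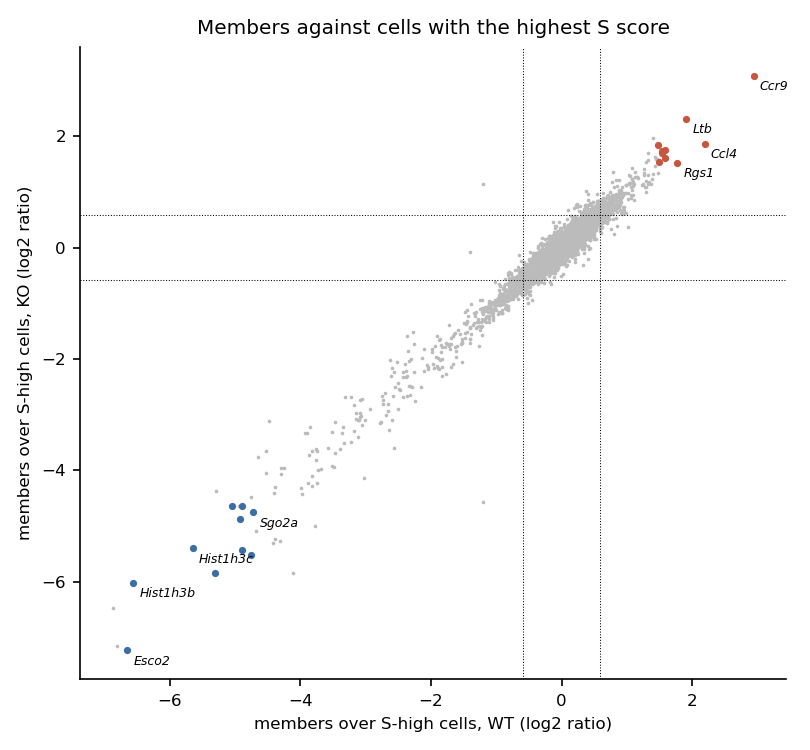
Log2 ratio of summed CPM, members over S-high cells, in WT (x) and KO (y) for every gene with at least 20 CPM; dotted lines mark 1.5-fold, red and blue points the 10 highest and 10 lowest genes outside the rule. The ratios lie along the diagonal, with Ccr9 alone near 3 on both axes and cycle genes reaching below -6.

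Against S-mid cells the members differed in few genes: 22 of 5159 (0.426%) were at least 1.5-fold higher in both libraries and 69 (1.34%) lower. Ccr9, Ccl4, Wfdc17, Ltb, Ccl3, Mzb1, Trbc2, Gem, Lax1 and Hacd4 led the higher genes, and Ccr9 stood at 13.9 CPM in WT and 21.2 in KO S-mid cells. Rad51ap1 and Clspn, genes of DNA repair and of the replication checkpoint, were among the 10 lowest, with Ctsg as the granule gene among them. Ccr9 was spread unevenly: 11.8% of its KO member UMIs came from 1 cell.

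Promoter sequences were searched for the elements named above and for the cAMP response element. The windows run from 250 bases before to 50 after a gene's start (RefSeq, GRCm38.p6), and 4303 of the 5376 measured genes matched one. On both strands the search took the letters TTTNNCGC for E2F, TTTGAA for CHR, TGACGTCA for the cAMP response element (CRE) and TGTTTAC for FOXO, with CCAAT by its name; none of these holds another. The E2F letters were in 22.7% of matched promoters of genes lower in members, 7.59% of those higher, 11.3% of all measured and 5.27% of all 27025 promoters. The CHR letters were in 25.4%, 12.1%, 12.5% and 18.1%, and CCAAT in 50.0%, 42.0%, 39.1% and 37.9%. The FOXO letters were in 1.89% of promoters of genes lower in members and 4.91% of those higher, 11 genes. They were in 2.58% of all measured and 3.55% of all 27025 promoters. Of the 35 genes listed for growth arrest or a link to FOXO 32 matched, and 4 held the FOXO letters. A gene of the S score, a marker of the members and a gene higher in KO are printed to show these letters, with all matches to the 5 motifs in capitals.
Pclaf promoter: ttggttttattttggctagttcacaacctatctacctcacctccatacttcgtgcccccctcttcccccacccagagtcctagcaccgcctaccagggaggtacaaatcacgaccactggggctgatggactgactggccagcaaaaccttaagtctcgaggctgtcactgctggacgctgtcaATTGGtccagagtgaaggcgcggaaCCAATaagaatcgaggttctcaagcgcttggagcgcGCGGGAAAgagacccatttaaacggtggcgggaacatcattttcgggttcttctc
Ypel3 promoter: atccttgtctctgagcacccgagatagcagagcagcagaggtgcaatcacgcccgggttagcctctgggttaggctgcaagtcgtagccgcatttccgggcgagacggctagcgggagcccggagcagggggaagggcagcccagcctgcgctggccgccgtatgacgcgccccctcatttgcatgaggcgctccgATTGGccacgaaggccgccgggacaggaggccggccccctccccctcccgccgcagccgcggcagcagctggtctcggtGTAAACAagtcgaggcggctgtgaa
Dusp1 promoter: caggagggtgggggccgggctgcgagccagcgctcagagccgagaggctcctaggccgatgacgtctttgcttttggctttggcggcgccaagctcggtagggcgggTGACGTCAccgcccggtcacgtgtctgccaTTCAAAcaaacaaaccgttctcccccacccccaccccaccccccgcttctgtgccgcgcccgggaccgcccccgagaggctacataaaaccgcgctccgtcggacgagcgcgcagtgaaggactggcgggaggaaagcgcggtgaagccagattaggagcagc
Pclaf, a PCNA-binding replication protein gene, starts in chr9:65890073-65890372 (plus strand) and holds 2 CCAAT matches and 1 E2F match. It was at 5.43 CPM in WT members and 611.0 in WT S-high cells. Ypel3 (chr7:126776713-126777012, plus strand) holds 1 CCAAT and 1 FOXO match. Dusp1 (chr17:26508423-26508722, minus strand) holds 1 CRE match, the cAMP response element, and 1 CHR match. The CRE letters were in 4.48% of matched promoters of genes at least 25% higher in KO, near the 3.73% of all genes measured for KO over WT. These matches describe letters and not binding.

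The nearest cells by cycle score were those with the same M and S limits and CD48 below the gate; genes named from this contrast were chosen after their values were seen. Of 5550 genes 1.44% were at least 1.5-fold higher in members in both libraries (80 genes) and 5.19% lower (288 genes). Members were higher in Cst7, Ccl9, Mpo, Adgrg3, BC035044, Ccr9, Bin1, Ighm, Myc and Plek. Mpo stood at 232.8 CPM in WT and 313.9 in KO members against 22.4 and 22.7, and Myc at 108.0 and 109.2 against 18.4 and 20.2. Members were lower in stem cell genes: 17 of 20 measured genes of the stem cell list were at least 1.5-fold lower and none higher, with a median log2 ratio of -1.47 in WT and -1.39 in KO, where 7.87% of all 9518 genes at this filter were lower and 1.68% higher (median -0.15 and -0.13). Of 14 lymphoid genes 8 were higher and none lower. Mecom, a transcription factor of stem cells, stood at 37.5 CPM in both libraries' members against 250.8 and 268.1. The imprinted genes H19 and Meg3 were also among the 10 lowest, at 9.98 and 6.94 CPM in WT members against 74.5 and 67.4. Of the tags, CD201 was lower in members by a CLR of 1.60 in WT and 1.23 in KO and Sca1 lower by 1.04 and 1.07. Every CLR holds the mean of all 6 antibodies, so these differences are not independent of the CD48 limit that parted the classes.

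The members were a mixture. With each cell thinned to 8000 UMIs, at least 1 Ccr9 UMI was found in 13.9% of WT members (18.2% unthinned) and 14.6% of KO members (19.8% unthinned), against 1.0% and 0.5% of cells with at least 2 Klf1 UMIs, erythroid-primed cells that should lack it (median depths 53073 and 69241 UMIs). Mpo was found in 62.5% of WT and 71.0% of KO members (77.6% and 88.4% unthinned; 15.7% and 15.3% in the Klf1 cells). Mecom was found in 22.4% and 21.3% (37.0% and 41.2% unthinned; 6.7% and 3.0% in the Klf1 cells).

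Ccr9-bearing members carried more transcripts of other lymphoid genes. The 120 WT members with Ccr9 after thinning held 387.0 CPM of Trbc2, a T-cell receptor constant gene, against 84.5 in the other 742. The 48 KO members with Ccr9 held 402.3 against 65.4. Ighm, the immunoglobulin mu chain gene, stood at 198.8 against 48.5 CPM in WT and 206.0 against 46.9 in KO, and Notch1 at 151.8 against 59.4 and 181.4 against 74.0. Mpo was lower in the Ccr9-bearing cells, at 113.3 against 249.8 CPM in WT and 144.4 against 342.2 in KO, and so was Mecom, at 17.7 against 40.3 and 19.4 against 40.6. Ypel3 differed less, at 109.8 against 82.5 CPM in WT and 97.7 against 77.2 in KO. Ccr9 and Mecom were found together in 12 WT and 5 KO members after thinning. The counts were larger for pairs with Mpo, which most members held. Ccr9 and Mpo were found together in 50 WT and 26 KO members, and Mecom and Mpo in 96 and 43. Whether these counts differ from those of independent detection was not tested.

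Members with and without any S-score UMI were compared for the genes above. In WT, Ccl4 stood at 216.0 CPM in the 261 members with an S score of 0 and 85.9 in the other 601, and Ccr9 at 70.2 and 37.4. In KO the same split of 65 and 263 cells gave 301.7 and 226.2 CPM for Ccl4 and 49.0 and 43.8 for Ccr9, whose log2 ratio of 0.16 had an interval of -0.25 to 0.55. The 4 markers differed less in WT, with log2 ratios of 0.06 for Hist1h2bc, 0.03 for Trp53inp1, 0.23 for Ypel3 and 0.24 for Ptms in cells with a score of 0 over the others. In KO Hist1h2bc was lower in the cells with a score of 0 (-0.30, -0.45 to -0.15), and the intervals of Trp53inp1 (0.43), Ypel3 (-0.03) and Ptms (-0.09) included 0. The cells with a score of 0 were the shallower ones, at a median of 16021 against 18748 UMIs in WT and 21778 against 24913 in KO.

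The second question is how KO members differed from WT members. A level of 20 CPM in WT or KO was reached by 5401 genes, of which 627 were at least 25% higher in KO (11.6%) and 78 at least 20% lower (1.44%). The median log2 ratio of all these genes was 0.08, and 88.9% of the genes past either fold were higher; with KO scaled so that the median ratio is 0 (a shift of 0.08), 303 were higher and 207 lower, and the share higher was 59.4%. By median ratio immediate early genes led the lists, followed by NF-kB genes, growth-arrest genes, replication-dependent histone genes and p53 targets, and the 12 lowest genes included interferon and ribosomal pseudogene transcripts.

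Fos, a subunit of the AP-1 factor, stood at 42.2 CPM in WT members and 213.6 in KO members, a log2 ratio of 2.34 (2.21 to 2.47). Its difference lay across many cells: at 8000 UMIs per cell, 23.3% of WT and 58.5% of KO members had at least 1 Fos UMI (36.5% and 78.4% unthinned; 6.1% and 18.5% in the Klf1 cells), and the top cell of each library held 2.10% and 2.60% of its UMIs. Nr4a1, an orphan nuclear receptor, stood at 4.48 and 22.8 CPM (2.35, 1.94 to 2.76). Klf2, a Kruppel-like factor of quiescence, stood at 8.59 and 32.1 CPM (1.90, 1.60 to 2.21). Dusp1, a MAP kinase phosphatase, stood at 11.6 and 39.3 CPM (1.77, 1.499 to 2.04), and Zfp36, which targets AU-rich mRNA for decay, at 38.4 and 105.7 (1.46, 1.31 to 1.61). The WT and KO intervals of these levels did not overlap, but the genes were chosen by their interval bound, so this is no further evidence.

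The immediate early list had 20 measured genes, 18 of them past the 25% fold in KO and none 20% lower, against 15.6% and 2.7% of all 9217 genes at this filter; the list's median log2 ratio was 1.02 against 0.09. The other 2 were Myc, at 0.02, and Jund, at 0.23. Jun, the AP-1 partner of Fos, stood at 361.8 and 678.0 CPM (0.91), and Nr4a2 had the list's largest ratio at 2.49, from 3.03 and 17.0 CPM. In KO the 192 members with Fos after thinning held more Jun than the other 136, at 780.3 and 539.7 CPM, and more Egr1, at 182.8 and 98.7. In WT the 201 members with Fos held 469.4 against 330.2 CPM of Jun. KO members without a Fos UMI thus still held more Jun than WT members with one.

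The excess was not confined to the members. In S-high cells Fos had a log2 KO over WT ratio of 1.86, Nr4a1 1.85, Klf2 1.37, Dusp1 1.54 and Zfp36 1.51, and in the CD48-low cells Fos had 2.42 and Klf2 2.77. No gene with at least 20 CPM was past the fold, with its interval clear of 0, in opposite directions in members and in S-high cells. Whether the members' ratios differ from those of other classes was not tested.

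Growth-arrest genes, higher in members than in S-high cells, were also higher in KO members. Of 30 measured, 19 were at least 25% higher and none 20% lower, against 15.6% and 2.7% of all genes, with a median log2 ratio of 0.39. Klf6 stood at 54.6 and 136.0 CPM (1.32), Mxd1, an antagonist of MYC, at 10.7 and 28.1 (1.397), Btg1, an antiproliferative gene, at 36.5 and 71.7 (0.97), and Txnip, the thioredoxin-binding protein gene, at 154.2 and 240.7 (0.64). Ypel3 (-0.10, -0.24 to 0.04), Mxd4 (0.05, -0.10 to 0.19) and Trp53inp1 (0.07, -0.25 to 0.39), among the genes that most separated members from S-high cells, had intervals that included 0. Of the markers Hist1h2bc was higher in KO at 0.35 (0.28 to 0.41), and Ptms stood at -0.16 (-0.35 to 0.02). Klf2, Klf6 and Btg2 also stand in the list of immediate early genes.

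Of 17 measured p53 targets 8 were at least 25% higher and none lower, with a median of 0.32. Of all 9217 genes at this filter 15.6% were at least 25% higher and 2.7% at least 20% lower, with a median of 0.09. Plk2, a polo-like kinase induced by p53, stood at 10.7 and 45.4 CPM (2.09, 1.82 to 2.36) and Cdkn1a, the p21 inhibitor of cyclin-dependent kinases, at 6.12 and 20.3 (1.73, 1.36 to 2.11). Cdkn1a was found in 3.6% of WT and 13.1% of KO members at 8000 UMIs per cell (7.7% and 28.4% unthinned; 2.2% and 3.5% in the Klf1 cells). Mdm2 stood at 0.38 and Bax, a death gene, at 0.06. Of 18 genes of G1 control 4 were higher, namely Cdkn1a, Rb1 at 0.54, Cdk6 at 0.45 and Cdkn1b at 0.39. The list's median of 0.10 was near the 0.09 of all genes. The 3 D cyclins were between 0.00 and 0.03.

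Of 16 NF-kB genes 9 were higher and none lower, against 15.6% and 2.7% of all genes, with a median of 0.42. Ccl4 stood at 121.0 and 239.0 CPM (0.98) and Nfkbiz, an inducible NF-kB cofactor, at 11.6 and 31.6 (1.45). Ccl3 stood at 24.0 and 70.3 CPM (1.55), and without the cell of each library that held most of its UMIs (23.7% of those of KO) at a log2 ratio of 1.29; leaving out such cells was chosen after the values were seen.

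Replication-dependent histone genes, at 20 of 39 higher and 1 lower with a median of 0.35, were led by Hist1h2ap, at 885.0 and 2277.4 CPM (1.36), which is near-identical in sequence to other H2A genes and may share their reads. For the lists of this paragraph, 15.6% of all genes were at least 25% higher and 2.7% at least 20% lower. The replication list had none of 40 at least 25% higher and 2 at least 20% lower, with a median of -0.02 (0.02 with cells thinned before summing). The G2 and mitosis list had 10 of 30 higher, at low levels such as Bub1b at 6.12 and 10.6 CPM; its median of 0.23 was -0.03 with the bottom 25% for S as members. Among splicing factors 7 of 39 were higher and none lower (median 0.17), a share near the 15.6% of all genes: Srsf5 stood at 276.2 and 438.2 CPM (0.67), the kinase gene Clk1 at 100.2 and 158.6 (0.66) and Tra2b at 229.6 and 323.7 (0.50). Of 13 ATF4 genes 5 were higher and 1 lower, with Ppp1r15a, which restores translation after stress, at 0.82 and Asns at -0.36. The heat shock genes Hspa1a and Hspa1b stood at 0.88 and 0.78, while the list's median was 0.08.

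The 3 remaining genes among the 12 highest had a large share of their UMIs in single cells. The metallothionein genes Mt1 and Mt2 stood at 16.4 and 133.2 CPM and at 5.87 and 36.8, but 1 KO cell of 48590 UMIs held 57.9% of the KO members' Mt1 UMIs and 55.1% of their Mt2 UMIs. Without the top cell of each library the log2 ratios were 2.08 for Mt1 and 1.56 for Mt2, in place of 3.03 and 2.65. Free RNA of both genes was abundant, at 556.4 and 1241.8 CPM of Mt1 in the empty droplets, and Klf1-bearing cells had Mt1 in 95.8% and 97.3% of cells. Apoc1, an apolipoprotein gene, stood at 8.78 and 31.2 CPM (1.83), with 19.0% of its KO UMIs in 1 cell, and at 1.70 without the top cells.

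**Figure D4:**
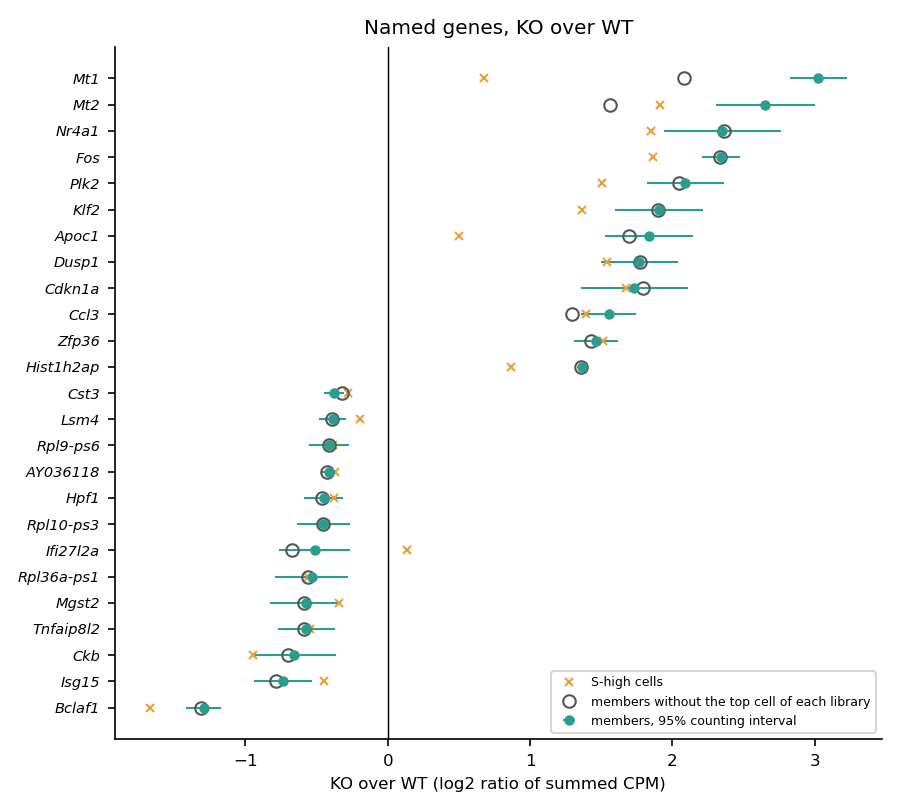
Log2 ratio of KO over WT summed CPM in members (filled circles with 95% counting intervals), without the top cell of each library (open circles) and in S-high cells (crosses) for Bclaf1 and the 12 highest and 12 lowest genes. The open circles leave the filled ones by the widest gap for Mt1 and Mt2, and Fos, Nr4a1, Dusp1 and Zfp36 stay in place.

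Apart from Bclaf1, the 12 genes lowest in KO by the rule for named genes had log2 ratios between -0.73 and -0.38. Isg15, a ubiquitin-like interferon product, stood at 53.9 and 32.4 CPM (-0.73, -0.94 to -0.53), and in S-high cells at -0.45 but in the CD48-low cells at -0.01. Tnfaip8l2, a negative regulator of immune signalling, stood at 51.7 and 34.8 CPM (-0.57) and Ckb, brain creatine kinase, at 24.7 and 15.6 (-0.66). The others of the 12 lowest, between -0.38 and -0.57, were AY036118, Mgst2, Hpf1, Cst3, Lsm4, Ifi27l2a and the ribosomal pseudogenes Rpl36a-ps1, Rpl9-ps6 and Rpl10-ps3, whose reads can come from the parent genes. Without the top cell of each library Cst3 stood at -0.321, just short of 20% lower. AY036118 was at 4596 and 3923 CPM in empty droplets against 686.4 and 514.4 in members. Of 33 interferon genes 4 were at least 20% lower and 1 at least 25% higher, against 2.7% and 15.6% of all genes, with a median of -0.09. Ifit1 stood at -0.65. All 33 genes of nuclear oxidative phosphorylation lay between -0.26 and 0.13, 29 of them below 0, with a median of -0.08. Of all 9211 genes so measured, rule genes left out, 3125 were below 0, with a median of 0.09.

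**Figure D5:**
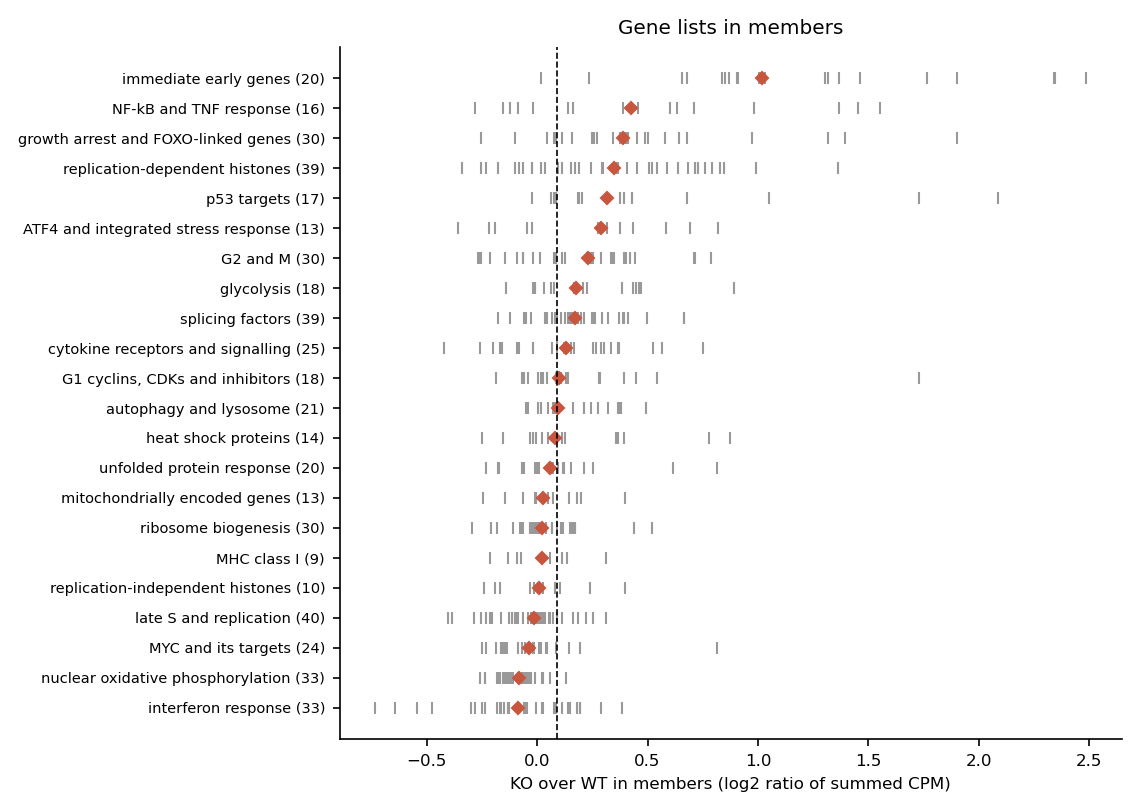
Log2 ratio of KO over WT summed CPM in members for the measured genes of 22 lists (grey ticks; number of genes in parentheses) with each list's median (red diamonds) and the median of all measured genes at 0.09 (dashed line). Immediate early genes have the highest median at 1.02, and the interferon list and nuclear oxidative phosphorylation the lowest at -0.09 and -0.08.

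Markers of other cell types differed in part between the libraries. For the counts that follow, 15.6% of all genes were at least 25% higher in KO and 2.7% at least 20% lower. The lymphoid list summed to 1962 CPM in WT and 2111 in KO members (1396 and 1454 in S-high cells), and the stem cell list to 1822 and 2175. The granulocyte-monocyte list summed to 1711 and 1983 CPM, with 7 of 15 at least 25% higher and 2 at least 20% lower in KO; Mpo stood at 232.8 and 313.9 (0.43) and Ctsg at 14.6 and 37.4, of which 1 KO cell held 24.2%. The monocyte and dendritic list had 5 of 7 lower, among them Cd74 at 18.6 and 3.91 CPM, where 1 WT cell held 29.8% of the WT UMIs, and H2-Ab1 at 11.2 and 4.41. The mast and basophil list summed to 806.6 and 916.4 CPM, nearly all of it Srgn and Kit, while Hdc stood at 3.09 and 15.1, with 23.3% of the KO UMIs in 1 cell. The eosinophil list summed to 2.46 and 28.5 CPM, and 140 of the 144 KO UMIs of its Prg2 lay in 1 cell of 10877 UMIs. The erythroid list summed to 1110 and 1063 CPM, of which Hbb-bt, a haemoglobin gene common in free RNA, gave 643.7 and 493.3. No UMI was found for 3 of 10 B cell genes, 4 of 17 genes of T, NK and innate lymphoid cells, 1 of 12 hepatocyte genes and 7 of 11 stellate cell genes. The part of these cells in the KO over WT ratios was not tested.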

How the data were processed

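The deposited matrices hold whole-number UMI counts of every barcode, unfiltered, from Cell Ranger 4, per the file headers; version 4.0.6, the build mm10, Seurat and DESeq are named in the submitters' processing notes. Each genotype has 1 RNA and 1 antibody sample from the same droplets (10 pooled embryos, 20000 cells sorted, 10000 loaded, per the labels). The members and lists were chosen with earlier results of these data known.

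UMIs were added up by class and library (15838678 in WT and 7936653 in KO members) and scaled to CPM. A ratio carries its exact conditional binomial 95% interval, computed by a script tested on simulated counts. Folds of 25% higher, 20% lower and, between classes, 1.5 in both libraries describe size and are no tests. Single genes needed 20 CPM and list genes 5 CPM on average. Of 792 list entries 788 matched a gene. Empty droplets had 100 to 300 UMIs.

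Named were Bclaf1, the 4 markers, the rule genes, the 12 highest and 12 lowest genes of KO over WT by the interval bound nearest 0 (haemoglobin, sex-linked and rule genes left out), the 10 highest and 10 lowest against S-high and S-mid cells by the smaller of both libraries' ratios (rule genes left out), and up to 4 genes of a list by extreme ratio; other names were chosen after their values were seen. Doublets were not called, and leaving out the 5% of members with most UMIs was an alternative. The libraries shared 5 cell barcodes, of which 0 were members. Python 3.11.15, NumPy 2.4.6, SciPy 1.17.1 and pandas 2.3.3 were used.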

Additional observations from a re-analysis of the deposited data

How the results depend on the processing

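No paired analysis was possible because each genotype has 1 library. The lower share of members in KO, the UMI ratio and the CD201, CD117 and Sca1 tag differences kept their sign under all 9 changes of the rule. The share difference ran from -5.08 to -2.78 points of all cells and from -5.23 to -1.21 of the CD150-CD48+ cells. Some of these changes could not test the share. S classes formed within each library make members an equal part of each library's cells left after the M step. Leaving out the 5% of members with most UMIs in each library cut both shares alike. The CD34 tag difference of 0.02 turned to -0.00125 without the 5% of members with most UMIs. Of the 24 genes highest or lowest in KO, 22 to 24 stayed past their fold under 15 other settings. These genes were chosen as extremes of the same cells, and the settings reuse largely the same counts, so this is a weak check. With the empty-droplet profile subtracted, Mt1 and Mt2 had no finite ratio. An infinite ratio still counted as past its fold, so that setting does not check these genes.

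Counts of genes past a fold followed the filter and the scaling. With a minimum of 50 CPM 200 genes were higher and 31 lower in KO, and 89 higher and 296 lower than in S-high cells; with no minimum these were 4809, 3083, 2492 and 1471. Scaling by the median ratio gave 303 and 207, and thinning cells to 8000 UMIs before summing gave 214 lower. With thinning the count of higher genes rose as well, and 81.0% of genes past either fold were higher, against 88.9% as reported. Without the 5% of members with most UMIs Mt1 stood at 1.85 and Mt2 at 1.51. Ifi27l2a stood at -0.18 with S and M scores from thinned cells. Among 52 gene and list results, 760 of 807 recomputed values lay inside the interval of the reported value, and 47 lay outside it. None past its fold changed sign. For a gene the interval was its counting interval. For a list it ran between the medians of its genes' interval bounds, which is no counting interval of the list median. The G2 and mitosis median lay inside it in all 15 settings although it ranged from -0.03 to 0.255. Trp53inp1, with an interval that included 0, stood at -0.56, and Ptms at -0.49, with cells thinned before summing.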

Other observations

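Picked after their values were seen, 2 further genes were higher in KO members. Gata2, a stem and progenitor transcription factor, stood at 20.5 CPM in WT and 35.4 in KO members (0.79, 0.56 to 1.03), with 7.47% of the KO UMIs in 1 cell, and Tfrc, the transferrin receptor, at 16.7 and 29.4 (0.82, 0.56 to 1.08).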
